A study of Homo sapiens with 18 samples.

Results

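The SWI/SNF (BAF) chromatin remodelling complex was examined through the messenger RNA of its subunits. The 31 subunit genes were taken by symbol from a list of core, BAF, PBAF and non-canonical BAF proteins, out of 55765 gene symbols in the table. All 31 were present as rows. Of these, 29 had a mean normalized count of at least 10 over the 18 libraries and entered the test, and SMARCB1 and ACTL6B did not.

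RNA came from G401, an established malignant rhabdoid tumour cell line, grown as 18 cultures in 6 groups of 3 biological replicates. The WT line had been edited at AAVS1, a safe harbour site, and kept RB1. E1 and F2 were clones with biallelic RB1 deletion made with CRISPR/Cas9, each a single clone, so a difference between a clone and the WT line cannot be told apart from a trait of that clone. Each line was cultured for 11 days with tazemetostat at 10 µM, which blocks the Polycomb methyltransferase EZH2, or with as much DMSO. All 6 groups shared the SMARCB1-deficient rhabdoid background.

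SWI/SNF complexes use the energy of ATP to slide or evict nucleosomes, and they open enhancers and promoters. One of a pair of ATPases, SMARCA4 (BRG1) or SMARCA2 (BRM), drives each complex. In BAF and PBAF the scaffold holds SMARCC, SMARCD, SMARCE1 and SMARCB1 proteins. Loss of SMARCB1 is the defining lesion of rhabdoid tumours, and SWI/SNF and the EZH2-containing Polycomb complex are known to oppose each other at many genes.

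The promoters of the 3 subunit genes that moved from near silence to clear expression with tazemetostat (SMARCA2, DPF3 and BCL11B) are printed here, with that of ACTL6B, which stayed near 0 in every group, and that of SMARCA4, the abundant partner of SMARCA2. They are RefSeq sequences of build GRCh38.p14, from 250 bases before to 50 bases after the most upstream annotated start, written 5′ to 3′ along the gene, with each CG dinucleotide in capitals. SMARCA2 lies at chr9:2015097-2015396 on the plus strand, DPF3 at chr14:72894052-72894351 on the minus strand, BCL11B at chr14:99272148-99272447 on the minus strand, ACTL6B at chr7:100656399-100656698 on the minus strand and SMARCA4 at chr19:10960780-10961079 on the plus strand.
SMARCA2: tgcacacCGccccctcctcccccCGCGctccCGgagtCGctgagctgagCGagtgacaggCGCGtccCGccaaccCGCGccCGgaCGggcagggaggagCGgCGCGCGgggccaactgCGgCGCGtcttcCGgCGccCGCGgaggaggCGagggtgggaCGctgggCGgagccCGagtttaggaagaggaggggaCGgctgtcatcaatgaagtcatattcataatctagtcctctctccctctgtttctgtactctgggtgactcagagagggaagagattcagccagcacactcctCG
DPF3: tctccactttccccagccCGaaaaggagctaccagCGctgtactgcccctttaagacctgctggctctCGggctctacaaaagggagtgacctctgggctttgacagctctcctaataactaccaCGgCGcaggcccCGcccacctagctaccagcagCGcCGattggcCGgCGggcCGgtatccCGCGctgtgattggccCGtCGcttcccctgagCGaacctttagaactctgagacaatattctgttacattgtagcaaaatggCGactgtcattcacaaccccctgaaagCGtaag
BCL11B: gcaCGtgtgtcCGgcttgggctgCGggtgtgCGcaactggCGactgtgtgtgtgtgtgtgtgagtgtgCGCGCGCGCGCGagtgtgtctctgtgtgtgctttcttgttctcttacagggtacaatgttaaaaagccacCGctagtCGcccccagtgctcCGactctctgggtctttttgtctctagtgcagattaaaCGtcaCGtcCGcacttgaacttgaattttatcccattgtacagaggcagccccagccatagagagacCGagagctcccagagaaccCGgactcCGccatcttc
ACTL6B: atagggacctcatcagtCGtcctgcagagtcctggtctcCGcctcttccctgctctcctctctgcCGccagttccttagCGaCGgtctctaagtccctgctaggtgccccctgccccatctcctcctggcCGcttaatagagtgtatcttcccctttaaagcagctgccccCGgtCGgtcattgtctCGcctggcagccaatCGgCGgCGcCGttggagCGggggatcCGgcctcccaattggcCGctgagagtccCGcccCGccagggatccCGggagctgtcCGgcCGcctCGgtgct
SMARCA4: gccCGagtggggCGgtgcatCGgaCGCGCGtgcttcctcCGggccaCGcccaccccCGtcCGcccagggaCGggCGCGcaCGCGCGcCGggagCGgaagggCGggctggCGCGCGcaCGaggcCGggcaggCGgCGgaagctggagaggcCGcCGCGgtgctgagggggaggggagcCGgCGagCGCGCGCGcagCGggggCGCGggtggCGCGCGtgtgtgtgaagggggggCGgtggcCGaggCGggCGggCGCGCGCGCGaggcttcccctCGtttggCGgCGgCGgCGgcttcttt

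The 300 bases held 30 CG dinucleotides at SMARCA2, 18 at DPF3, 20 at BCL11B and 22 at ACTL6B, against 55 at SMARCA4. The median over the 26 subunit genes with an entry in the RefSeq table was 32.0, against 13.0 over 27305 promoters of the same length. These 27305 held 1 window per symbol and were not limited to the genes tested here. SMARCA2 had 4 annotated starts, DPF3 2, SMARCA4 2, BCL11B 1 and ACTL6B 1, of which only the most upstream was used. ACTL6A, ACTB, ARID2, SMARCC1 and SMARCC2 had no entry. A set of 4 short motifs was searched on both strands: the E2F-type motifs TTTCCCGC and TTTGGCGC, the cell cycle homology motif TTTGAA and the CCAAT box. TTTCCCGC was in 3.8% of subunit promoters (BRD7 alone) and 1.7% of all promoters, and TTTGGCGC in 0.0% and 0.7%. TTTGAA was in 3.8% (BCL11A alone) and 15.5%, and CCAAT in 38.5% and 35.7%. None of the 5 printed windows held any of the first 3 motifs, and those of DPF3 and ACTL6B held CCAAT.

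Library depth was 25709489 to 39314860 reads. RB1 stood at 2565.5 to 2828.3 normalized counts in the WT line in DMSO, at 504.9 to 780.3 in E1 and at 803.9 to 860.5 in F2. VIM, a mesenchymal marker, stood at 27409.56 to 69992.62. PTPRC and CD3E, markers of blood cells, had at most 2 reads in any library. CDH5 had at most 29 reads and EPCAM at most 19. CDH1, an epithelial cadherin, ranged from 8.04 to 421.82, and the sum over these 5 genes ran from 16.07 to 35.07 in E1 in DMSO, from 125.31 to 170.21 in E1 with tazemetostat and from 132.27 to 446.14 in the other groups. Its part in the results was not tested. The E1 cultures in DMSO were the least alike, with a median SD across genes of 0.178 on the log2 scale against 0.078 to 0.121 in the other groups.

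SMARCB1 (INI1, BAF47), a core subunit that contacts the nucleosome, had 0 reads in 18 of 18 libraries. In any 1 library, a level low enough for an expected count of up to about 3 reads could still give 0. The absence of reads extended along chromosome 22. In the RefSeq order of protein-coding genes, 8 neighbours on the lower-coordinate side up to IGLL1 and 10 on the higher-coordinate side up to GGT5 also had at most 1 read in any library. Of these 18 genes, 12 had 0 reads throughout, among them MIF, DDT and MMP11, and 1 further annotated symbol next to IGLL1 was not matched in the table. The genes beyond them were expressed: BCR stood at 2139.21 to 3690.76 normalized counts and SPECC1L at 1070.01 to 1410.92. The run was present in the 3 lines and under both treatments.

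In the WT line in DMSO the other subunits spanned a wide range when read counts were divided by exon length. ACTB, the actin subunit shared with the cytoskeleton, was far above the rest at 49043 ± 1240 normalized counts per kilobase (SD, n = 3). Reads of its near-identical family members may be split or shared by the counting, so its value is uncertain. SMARCA4 was next at 1883 (lowest 1863, highest 1899), above SMARCD1 at 1517 ± 30.4 and SMARCC1 at 1502 ± 75.6, which overlapped each other. ACTL6A at 1360 ± 109 and SS18 at 1320 ± 54.0 overlapped too. BCL11A, DPF1 and GLTSCR1 were the lowest of the 26 subunits expressed in DMSO, at 34.2 ± 2.46, 40.3 ± 4.99 and 61.1 ± 5.98. Their order depends on the exon length used, which counts every alternative exon and was 14800 bases for BCL11A. Without division by length, BCL11A stood at a mean of 507 normalized counts, above DPF1 at 120 and GLTSCR1 at 373. SMARCA2 at 0.134 ± 0.070, BCL11B at 0.160 ± 0.183, ACTL6B at 0.788 ± 0.684 and DPF3 at 2.41 ± 0.710 were near the floor of detection.

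**Figure D1:**
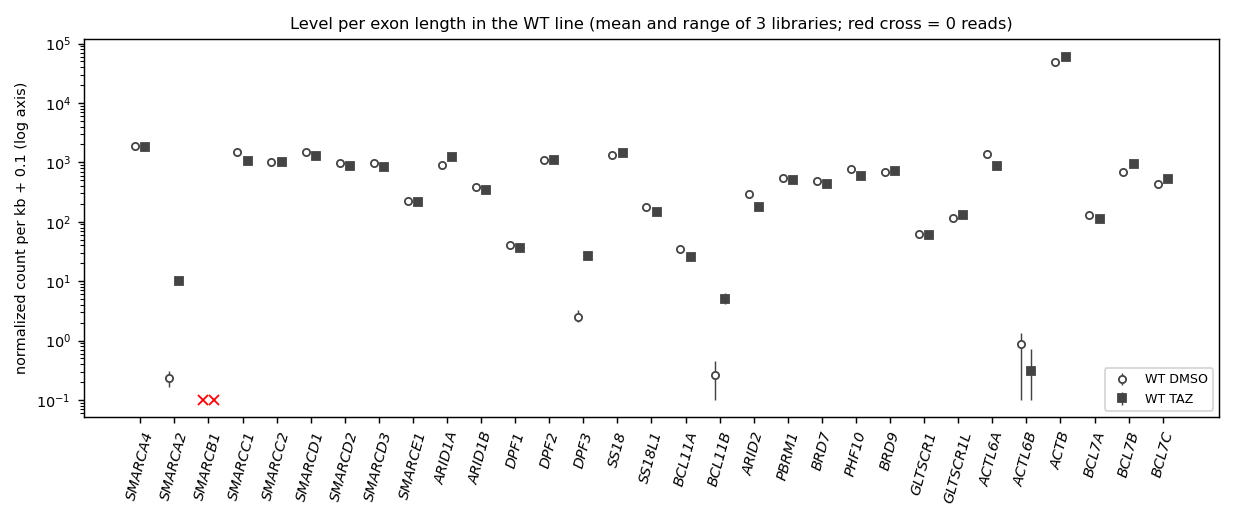
Normalized counts per kilobase of exon (log axis, 0.1 added) for each subunit in the WT line in DMSO and with tazemetostat, with points at the mean and bars from the lowest to the highest of 3 libraries. SMARCA2, BCL11B and DPF3 sit near the floor in DMSO and move up with tazemetostat, and SMARCB1 has no reads under either.

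Tazemetostat raised 3 subunit genes that were near silent in DMSO, in all 3 lines. They were SMARCA2, the second ATPase, DPF3, a histone-reading PHD finger subunit best known from heart and muscle, and BCL11B, a zinc finger subunit known from T cells and neurons. A call required a log2 change of 1 or more in size and an adjusted p below 0.05. Under it 3 of 29 subunits were higher and 0 lower in each line. Over all 16154 genes tested, 14.5% were higher and 6.77% lower in the WT line, 11.3% and 3.78% in E1, and 13.3% and 3.71% in F2. In bulk RNA a change in the share of cells that express a gene and a change in RNA per cell cannot be told apart. All 3 passed the filter on low values, a mean of at least 10 over all libraries, through their treated libraries: SMARCA2 and BCL11B were below 10 normalized counts in every DMSO library, and DPF3 averaged 6.86 (E1) and 9.87 (F2) with DMSO and ran from 9.61 to 16.1 in the WT DMSO libraries. Genes that enter in this way had to differ, so the count of 3, and the p values given for these genes with tazemetostat, describe the rise and are no independent support for it. Each line's tazemetostat cultures were compared with its own DMSO cultures.

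SMARCA2 stood at 0.873, 1.89 and 2.84 normalized counts in the 3 WT DMSO libraries and at 146, 133 and 139 with tazemetostat. E1 gave 0, 2.90 and 2.92 in DMSO and 228, 212 and 247 with tazemetostat. F2 gave 0, 6.22 and 0 in DMSO and 264, 292 and 277 with tazemetostat. Every treated library lay far above every DMSO library, and the treated values of E1 and F2 lay above those of WT. On the log2(value + 1) scale, where the added count shrinks changes of low genes, WT rose by 5.67 ± 0.59 (SE), E1 by 6.53 and F2 by 7.17. The limma adjusted p values were 1.04e-07, 2.16e-08 and 4.75e-09. Each line had 6 SMARCA2 reads over its 3 DMSO libraries. The ratio of depth-scaled reads had a wide interval: 75.7 for WT (95% counting interval 34.5 to 207), 122 for E1 (55.5 to 332) and 128 for F2 (58.5 to 349). All 6 DMSO reads of F2 came from replicate 2. Without that library F2 had 0 DMSO reads, so its ratio and interval rest on it, and the fitted log2 rise was 8.12. The differences between treated clones and treated WT, 0.71 for E1 and 0.99 for F2 on the log2 scale, did not pass the test (adjusted p = 0.329 and 0.169), although the libraries did not overlap. Each passed under 4 of 10 alternatives (a pseudocount of 5, a fit of only the groups compared, edgeR and DESeq2), with lowest adjusted p values of 1.68e-05 and 5.58e-10, so the result for these differences depends on the fit.

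The induced SMARCA2 remained a small part of the ATPase messages. Per exon length, SMARCA2 made up 0.553 ± 0.031% (SD, n = 3) of the SMARCA4 and SMARCA2 sum in WT with tazemetostat, 1.16 ± 0.084% in E1 and 0.848 ± 0.060% in F2. In DMSO its share was between 0.000% and 0.017% in every library.

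DPF3 stood at 9.61, 10.4 and 16.1 normalized counts in WT in DMSO and at 116, 141 and 145 with tazemetostat. In E1 the values were 8.93, 2.90 and 8.77 against 83.0, 80.3 and 80.1, and in F2 12.3, 12.4 and 4.85 against 91.3, 66.6 and 95.3. The 2 treatments did not overlap in any line. The log2 rise measured 3.40 ± 0.34 for WT, 3.51 for E1 and 3.05 for F2 (limma adjusted p = 7.37e-08, 7.3e-08 and 4.15e-07). Read ratios were 11.2 (8.03 to 16.0), 11.7 (7.57 to 19.1) and 8.37 (5.66 to 12.8). Its paralogs DPF1 and DPF2, which fill the same position in the complex, showed no change of this size. DPF3 reached 2.34 ± 0.268% of the per-length DPF1, DPF2 and DPF3 sum in WT, 1.67 ± 0.046% in E1 and 1.58 ± 0.269% in F2.

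BCL11B stood at 0, 2.83 and 0.946 normalized counts in WT in DMSO and at 35.5, 31.8 and 49.3 with tazemetostat. E1 moved from 1.79, 0.965 and 0.974 to 41.5, 37.7 and 64.1, and F2 from 5.12, 2.08 and 2.43 to 75.7, 62.6 and 64.8. All treated libraries were above all DMSO libraries. The log2 rise measured 4.33 ± 0.39 for WT, 4.42 for E1 and 4.09 for F2 (limma adjusted p = 1.48e-08, 1.56e-08 and 4.06e-08), and the read ratios were 31.0 (11.8 to 116), 38.3 (14.6 to 142) and 20.8 (10.8 to 46.1). Its paralog BCL11A was itself among the lowest subunits, and BCL11B reached 16.1 ± 3.61% of the per-length pair in WT, 16.0 ± 2.66% in E1 and 16.0 ± 0.959% in F2.

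For SMARCA2, DPF3 and BCL11B no difference in response between a clone and WT passed the main test (limma adjusted p from 0.202 for SMARCA2 in F2 to 0.911 for BCL11B in E1). For SMARCA2 in F2 the difference was 1.496 on the log2 scale, and 1.021 to 2.447 with single libraries left out. It passed under 1 of 10 alternatives (adjusted p = 0.0345) and without 1 of 12 libraries, so this result depends on the fit. The other response differences of these genes passed under none of these settings. ACTL6B, the neuronal actin-like subunit that replaces ACTL6A in neurons, stood at 0 to 3.86 normalized counts over the 18 libraries and was not tested.

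**Figure D2:**
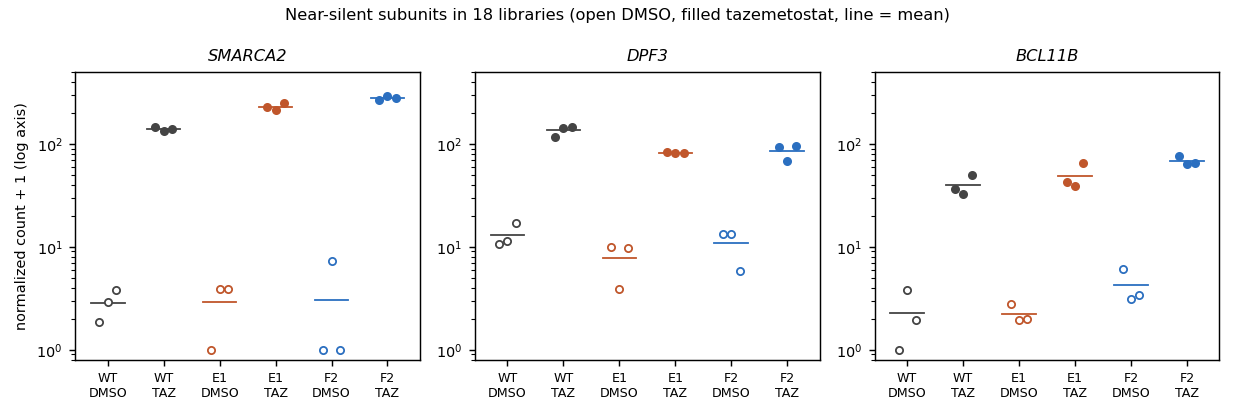
Normalized counts per library (log axis, 1 added) of SMARCA2, DPF3 and BCL11B in the 6 groups, with 1 point per library (open in DMSO, filled with tazemetostat) and a line at the mean. The treated libraries lie above every DMSO library in each line and panel, with SMARCA2 going from at most 6.22 to at least 133.

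Beyond these, changes were under 2-fold. Counting every subunit with an adjusted p under 0.05, a rule adopted after the values were seen, 6 were higher and 11 lower in WT, 6 and 5 in E1, and 7 and 5 in F2. Over all genes tested the shares were 34.8% higher and 29.4% lower in WT, 27.1% and 19.7% in E1, and 29.0% and 23.2% in F2. In WT the median subunit changed by -0.09 on the log2 scale against 0.03 over all genes. In E1 and F2 the subunit medians were 0.04 and 0.04, against 0.02 and 0.02. Scaling each library to the same total moved the median of all genes in WT by -0.15. It changed the split to 5 higher and 15 lower in WT, 4 and 5 in E1, and 5 and 7 in F2, and the share of higher calls over all WT genes from 54.2% to 41.7%. TMM scaling gave 6 higher and 7 lower in F2. When each library was left out in turn, 5 rises and 9 falls were kept throughout in WT, 4 and 4 in E1, and 4 and 4 in F2.

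**Figure D3:**
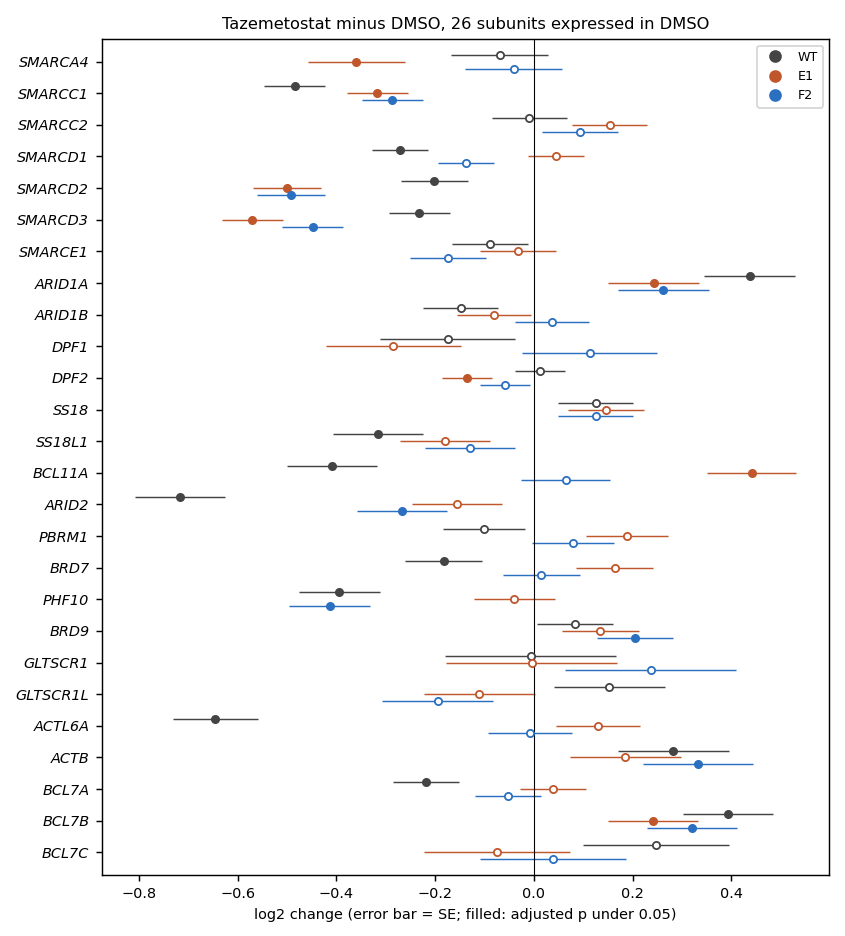
Log2 change with tazemetostat (horizontal axis) for the 26 subunits expressed in DMSO in WT (grey), E1 (orange) and F2 (blue), with bars of 1 limma standard error and filled points where the adjusted p was under 0.05. The changes lie between -0.72 (ARID2 in WT) and 0.44, and SMARCC1, SMARCD2 and SMARCD3 are filled and negative in all 3 lines.

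Among the scaffold subunits, SMARCC1 (BAF155), which forms the dimer at the base of the complex, fell in all 3 lines. In WT its normalized count was 9718, 9973 and 9041 in DMSO and 6926, 6975 and 6628 with tazemetostat. E1 gave 9716, 8836 and 9476 against 7055, 7840 and 7602, and F2 10389, 10201 and 9289 against 7964, 8446 and 8055. No treated library reached a DMSO library of its line. The log2 change was -0.48 ± 0.06, -0.32 and -0.29 (limma adjusted p = 1.59e-06, 0.000313 and 0.000689). Its paralog SMARCC2 (BAF170) changed by -0.01, 0.15 and 0.09, none past the threshold. The SMARCC1 to SMARCC2 log2 ratio changed by -0.48 (WT), -0.47 (E1) and -0.38 (F2), without overlap between treatments, at an exact permutation p of 0.1 each, the smallest that 3 against 3 libraries allow.

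SMARCD2 and SMARCD3 (BAF60B and BAF60C), alternative subunits that link the complex to transcription factors, fell in both clones. SMARCD3 stood at 2491, 2373 and 2560 in WT in DMSO and at 2069, 2093 and 2156 with tazemetostat, a log2 change of -0.23. In E1 it went from 2310, 2495 and 2131 to 1615, 1495 and 1552 (-0.57 ± 0.06) and in F2 from 2385, 2496 and 2534 to 1865, 1857 and 1714 (-0.45). Treated and DMSO libraries were separate in each line. The response in E1 differed from that in WT by -0.34 (limma adjusted p = 0.00582), and the difference in F2, -0.22, did not pass (0.0781). SMARCD2 changed by -0.50 in E1 and -0.49 in F2. Its change of -0.20 in WT was lost without DMSO replicate 1 (adjusted p = 0.0547), DMSO replicate 2 (0.0686) or tazemetostat replicate 3 (0.0803).

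The third of these, SMARCD1, fell by 0.27 on the log2 scale in WT (limma adjusted p = 0.000424), with values of 5567, 5763 and 5569 in DMSO and 4815, 4671 and 4527 with tazemetostat. It changed by 0.05 in E1, which did not pass, and by -0.14 in F2 (0.0517). The F2 treatments did not overlap, and 7 of 10 alternatives passed there, with adjusted p values over the 10 from 0.00703 to 0.0671, so the F2 value lay at the edge of the threshold. The E1 response differed from that of WT by 0.32 (0.00515). The per-length share of SMARCD1 among the 3 paralogs was 43.7% in DMSO and 42.8% with tazemetostat in WT, but 41.5% and 51.4% in E1 and 44.8% and 50.6% in F2. SMARCE1 (BAF57) passed in none of the 3 lines.

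Of the ATPase-associated subunits, ACTL6A (BAF53A), the actin-like protein of dividing cells, fell in WT alone. In WT it stood at 2801, 2742 and 2408 normalized counts in DMSO and at 1725, 1809 and 1549 with tazemetostat. In E1 the values were 2232, 2458 and 2645 against 2422, 2927 and 2681, and in F2 2850, 2650 and 2457 against 2719, 2610 and 2574. The WT treatments were separate, and those of each clone overlapped. The log2 change was -0.65 ± 0.09 in WT (limma adjusted p = 2.64e-06), 0.13 in E1 (0.231) and -0.01 in F2 (0.952). The test of the difference in response gave 0.78 ± 0.12 for E1 (7.4e-05) and 0.64 for F2 (0.000689), both kept without any 1 library. ACTL6A also belongs to the INO80 and TIP60 complexes.

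BCL7B, a small subunit bound to the ATPase module, rose in WT (0.39, limma adjusted p = 0.00105) and in F2 (0.32, 0.0066). In E1 its 0.24 was lost without any of 5 of the 6 libraries, all but DMSO replicate 2, with adjusted p values of 0.0634 to 0.225. It was also lost under scaling to the same total (0.117), TMM scaling (0.053), a fit of only the groups compared (0.177) and edgeR (0.0664). BCL7A, its paralog, fell in WT by 0.22 (0.00848), and BCL7C passed in none of the lines. ACTB rose by 0.28 in WT and 0.33 in F2. The first was lost without any 1 of its 6 libraries (0.0528 to 0.0826) and under scaling to the same total (0.28), the second without DMSO replicate 3 (0.052) or tazemetostat replicate 1 (0.0772).

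**Figure D4:**
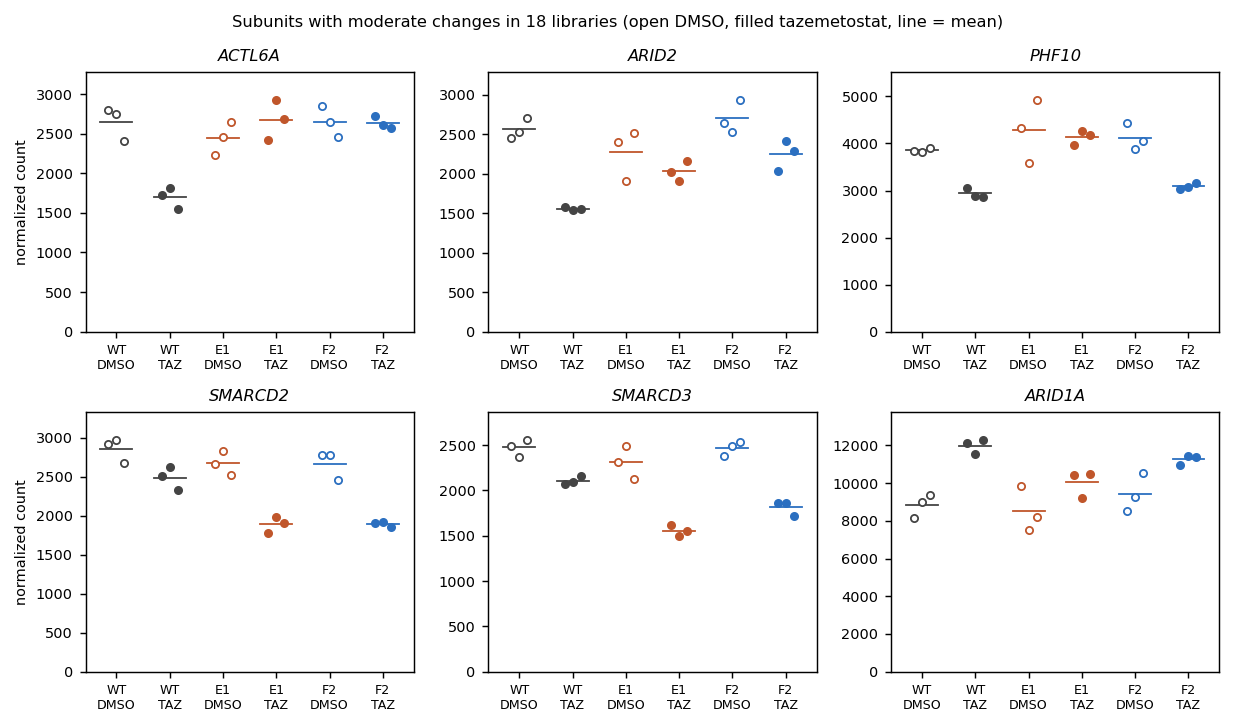
Normalized counts of ACTL6A, ARID2, PHF10, SMARCD2, SMARCD3 and ARID1A by line and treatment, with 1 point per library (open in DMSO, filled with tazemetostat) and a line at the mean. Treated and DMSO points are apart in WT in all 6 panels and overlap in E1 for ACTL6A, ARID2, PHF10 and ARID1A.

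Of the 4 subunits particular to PBAF, the form that carries PBRM1 and ARID2, 3 fell in WT, 2 in F2 and 0 in E1. Shares of all genes that fell were 29.4% (WT), 19.7% (E1) and 23.2% (F2). With 4 genes and no test of the group these counts are a description, and they include calls of BRD7 in WT and ARID2 in F2 that rest on single libraries. ARID2 (BAF200) stood at 2457, 2528 and 2703 in WT in DMSO and at 1577, 1538 and 1558 with tazemetostat, a log2 change of -0.72 ± 0.09 (limma adjusted p = 1.48e-06). In E1 it stood at 2399, 1913 and 2512 against 2023, 1903 and 2166, and in F2 at 2646, 2528 and 2935 against 2040, 2414 and 2290. The WT treatments were far apart and those of E1 overlapped. The change was -0.16 in E1 (0.175) and -0.27 in F2 (0.0199), the latter lost without F2 DMSO replicate 3 (0.0965) or F2 tazemetostat replicate 1 (0.11). The responses of the clones differed from that of WT by 0.56 in E1 (0.00237) and 0.45 in F2 (0.0142).

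PHF10 (BAF45A), the PHD finger subunit of PBAF, fell by 0.39 in WT (limma adjusted p = 0.000413) and by 0.41 in F2 (0.000343) on the log2 scale. Its values were 3849, 3822 and 3908 in DMSO and 3055, 2893 and 2868 with tazemetostat in WT, and 4426, 3885 and 4044 against 3042, 3065 and 3153 in F2. In E1 it stood at 4327, 3589 and 4928 against 3966, 4259 and 4177, with overlap, and changed by -0.04 (0.732). PBRM1 (BAF180), the bromodomain subunit, passed in none of the lines. BRD7, a further bromodomain subunit, passed in WT with -0.18, but not without any of 5 of the 6 libraries, all but DMSO replicate 3 (0.0652 to 0.142). It also did not pass with the replicate number as a block (0.0609) or with a mean filter of 1 (0.0588).

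In canonical BAF, ARID1A (BAF250A), the large DNA-binding subunit often mutated in carcinomas, rose in WT from 8162, 9020 and 9398 to 12107, 11529 and 12304 normalized counts. The WT treatments did not overlap, and the log2 rise was 0.44 ± 0.09 (limma adjusted p = 0.000418). It was 0.24 in E1 and 0.26 in F2. The E1 rise was lost without DMSO replicate 2 or 3 or tazemetostat replicate 1 or 3 (0.0848 to 0.175), and that of F2 without DMSO replicate 1 or 2 or tazemetostat replicate 2 or 3 (0.059 to 0.124). The E1 rise was also lost under scaling to the same total (0.157), in a fit of only the groups compared (0.141) and in edgeR (0.0516). That of F2 was also lost under scaling to the same total (0.0575). Other settings kept both rises of ARID1A. ARID1B, its alternative in the complex, did not pass in any line. The log2 ratio of ARID1A to ARID1B changed by 0.59 (WT), 0.32 (E1) and 0.23 (F2), without overlap between treatments (exact permutation p = 0.1 each, the smallest possible).

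BCL11A, a zinc finger subunit known as a repressor of fetal globin genes, moved in opposite directions. It stood at 473, 502 and 545 in WT in DMSO and at 398, 379 and 366 with tazemetostat, a log2 change of -0.41 ± 0.09 (limma adjusted p = 0.000677). In E1 it stood at 375, 318 and 332 in DMSO and at 439, 440 and 514 with tazemetostat, a rise of 0.44 (0.000524). The treatments were separate in both lines, with WT going down and E1 going up. In F2 it stood at 588, 682 and 643 against 689, 639 and 670 and changed by 0.06 (0.58). The responses differed from that of WT by 0.85 in E1 (4.97e-05) and 0.47 in F2 (0.0102).

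SS18L1 (CREST), the neuronal counterpart of SS18, fell by 0.32 in WT on the log2 scale (limma adjusted p = 0.00562), and SS18, the gene fused in synovial sarcoma, passed in none of the lines. DPF2 passed in E1 only, with -0.14, and not without DMSO replicate 2 or any 1 tazemetostat replicate (0.0602 to 0.132). It was also lost with a mean filter of 1 (0.0527) and in a fit of only the groups compared (0.24). In WT its value was 0.01, and scaling to the same total turned it to -0.14 (0.0157).

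In non-canonical BAF, the form marked by BRD9 and a GLTSCR1 protein, BRD9 passed in F2 with 0.21. That was lost without F2 DMSO replicate 1 or 2 or tazemetostat replicate 2 (limma adjusted p = 0.0918 to 0.152). It was also lost under scaling to the same total (0.1), TMM scaling (0.053) and edgeR (0.0529). GLTSCR1 (BICRA) and GLTSCR1L (BICRAL) passed in none of the lines. SMARCA4, shared by all forms, passed in E1 alone, falling by 0.36 on the log2 scale (0.00549). Its E1 values were 15189, 13233 and 10434 in DMSO and 10613, 9392 and 9966 with tazemetostat, so the treatments overlapped, and the call was lost when the fit held only these 2 groups (0.0708). The responses of SMARCA4 in E1 and WT did not differ past the threshold (-0.29, 0.113). In WT it stood at 13590, 13499 and 13336 against 12683, 12898 and 12948, a change of -0.07 (0.552).

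The 3 lines were then compared within each treatment. These comparisons share libraries with each other and with those above. No subunit reached a log2 difference of 1 with an adjusted p under 0.05 in any of them, where 5.04% of all genes did for E1 against WT in DMSO, 2.98% for F2 against WT in DMSO, 11.3% and 12.3% for E1 and F2 against WT with tazemetostat, 7.56% for E1 against F2 in DMSO and 6.82% with tazemetostat. On adjusted p alone in limma, in DMSO E1 had 2 subunits above and 2 below the WT line, against 11.4% and 11.7% of all genes, and 4 higher and 0 lower in F2, against 8.10% and 12.1%. With tazemetostat the counts were 8 and 6 for E1 (25.0% and 26.9% of all genes) and 11 and 2 for F2 (25.1% and 27.9%). Scaling to the same total gave 2 and 4, 5 and 0, 10 and 5, and 16 and 1 in the same order. It moved the median of all genes in F2 against WT with tazemetostat by 0.15 and their share of higher calls from 47.4% to 64.6%.

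BCL7A was higher in both clones than in WT. In DMSO it stood at 824, 817 and 791 in WT, at 1086, 1014 and 1006 in E1 and at 1006, 1077 and 1024 in F2. With tazemetostat it stood at 705, 731 and 656 in WT, at 1076, 1117 and 999 in E1 and at 1064, 957 and 979 in F2. Neither clone overlapped WT under either treatment. The log2 difference was 0.35 ± 0.07 for E1 and 0.35 for F2 in DMSO (limma adjusted p = 0.000729 and 0.000976) and 0.61 and 0.52 with tazemetostat (5.88e-07 and 3.69e-06).

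In DMSO 3 further differences were kept without any 1 library. SMARCC2 was higher in F2 than in WT by 0.33 on the log2 scale (limma adjusted p = 0.00479). BCL11A and SMARCD1 were lower in E1 than in WT, with log2 differences of -0.57 and -0.23 (0.000125 and 0.00561), and that of SMARCD1 was lost when the fit held only these 2 groups (0.0959). BCL7B in E1 (0.29) was lost without WT replicate 2 or 3 or E1 replicate 1 or 2 (0.0554 to 0.142), and when the fit held only these 2 groups (0.248). In F2, SMARCA4 (0.35) was lost without WT replicate 2 or F2 replicate 2 or 3 (0.0536 to 0.0899), and BCL11A (0.33) without WT replicate 1 or 2 or F2 replicate 2 (0.0501 to 0.0783).

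With tazemetostat, ACTL6A, ARID2, BRD7, BCL7A and SMARCC2 were higher than in WT in both clones, and SMARCD2 and SMARCD3 lower, in every fit that left out 1 library. ACTL6A differed by 0.66 in E1 and 0.64 in F2 on the log2 scale and ARID2 by 0.38 and 0.53. BRD7 differed by 0.41 and 0.37, SMARCD2 by -0.40 and -0.39 and SMARCD3 by -0.44 and -0.22, the last lost under scaling to the same total (-0.07, limma adjusted p = 0.393). Among the PBAF subunits, PHF10 (0.49) and PBRM1 (0.39) also were higher in E1, which made 4 of 4, against 25.0% of all genes and 8 of 12 ISWI genes in the same contrast. In F2 2 of the 4 were higher. SMARCA4 differed from WT in opposite directions, by -0.36 in E1 (0.00466) and 0.37 in F2 (0.00367). BCL11A (0.80, limma adjusted p = 6.9e-07), GLTSCR1 (0.62, 0.00609), ARID1B (0.28, 0.00399) and SMARCC1 (0.25, 0.00214) also were higher in F2. GLTSCR1L (-0.56, 0.000407) and DPF2 (-0.24, 0.000608) also were lower in E1. Of these calls, 3 depended on single libraries. ARID1A in E1 (-0.26) was lost without WT replicate 1 or 3 or E1 replicate 2 (0.067 to 0.123), and under scaling to the same total (0.118). BCL11A in E1 (0.28) was lost without WT replicate 3 (0.0521) or E1 replicate 3 (0.0919). SMARCD1 in F2 (0.15) was lost without WT replicate 2 or 3 or any 1 F2 replicate (0.0667 to 0.111).

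The 2 clones differed from each other, in comparisons added after the values were seen. On adjusted p alone in limma, E1 cultures in DMSO had 1 subunit above and 8 below the F2 cultures (19.4% and 17.7% of all genes), and 2 and 6 with tazemetostat (17.9% and 16.6%). Scaling to the same total gave 0 and 10, and 2 and 9, and moved the share of higher calls over all genes with tazemetostat from 51.8% to 35.9%. SMARCA4 with tazemetostat stood at 10613, 9392 and 9966 in E1 and at 17218, 16547 and 16175 in F2, with WT between them. The clones did not overlap, and the log2 difference was -0.74 ± 0.10 (limma adjusted p = 1.36e-05). In DMSO it was -0.42 (0.00244), lost when the fit held only the 2 groups (0.13). BCL11A differed by -0.90 in DMSO (3.32e-07) and -0.52 with tazemetostat (0.000228). GLTSCR1 with tazemetostat stood at 429, 281 and 352 in E1 and at 580, 579 and 542 in F2, a difference of -0.70 ± 0.17 (0.00461). Of the 9 DMSO calls, 4 were kept without any 1 library (SMARCA4, SMARCD1, BCL11A and GLTSCR1L). With only the 2 groups in the fit, SMARCD1 (0.0666) and GLTSCR1L (0.186) were lost too, and BCL11A alone remained of the 9. Of the 8 calls with tazemetostat, 5 were kept without any 1 library. SMARCD3 (-0.22) was lost without E1 replicate 2 (0.0508), PBRM1 (0.30) without F2 replicate 1 (0.0614) and GLTSCR1L (-0.31) without any of 5 libraries, all but E1 replicate 3 (0.0669 to 0.144).

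**Figure D5:**
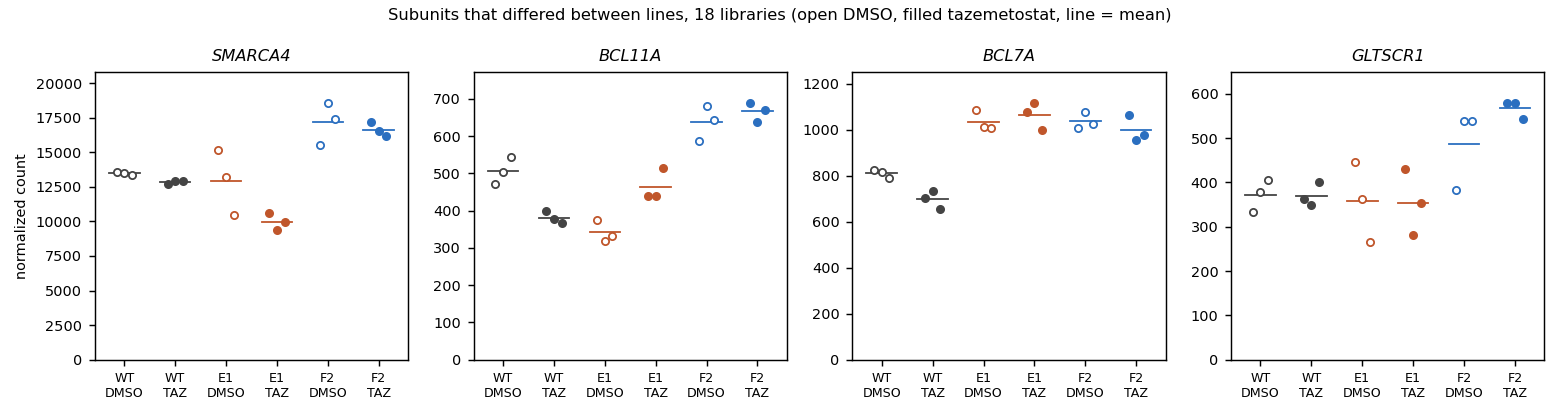
Normalized counts of SMARCA4, BCL11A, BCL7A and GLTSCR1 in the 6 groups, with 1 point per library (open in DMSO, filled with tazemetostat) and a line at the mean. BCL7A is higher in both clones than in WT, and the SMARCA4 mean is highest in F2 and lowest in treated E1.

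The response to tazemetostat was compared between each clone and WT directly. No subunit passed with a log2 difference of 1, where 10.0% of all genes did for E1 and 7.48% for F2. On adjusted p alone in limma, 7 subunits had a higher and 2 a lower response in E1 (17.2% and 18.2% of all genes), and 3 and 1 in F2 (13.7% and 13.2%). Scaling to the same total gave 9 and 2 in E1 and 8 and 0 in F2, with the share of higher calls over all genes going from 48.5% to 61.4% and from 51.0% to 70.9%. It moved the median of all genes in F2 by 0.12. ACTL6A, ARID2 and BCL11A passed in both clones and in every fit that left out 1 of the 12 libraries. SMARCD1 and SMARCD3 did so in E1.

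Other chromatin remodellers gave a background for these counts. With tazemetostat in WT, on adjusted p alone, 1 of 12 genes of the ISWI complexes was higher and 8 lower, with a median log2 change of -0.30, where 34.8% of all genes were higher and 29.4% lower. Of 21 CHD and NuRD genes, 3 were higher and 10 lower (median -0.19), and of 30 INO80, SRCAP and TIP60-EP400 genes, 3 and 12 (median -0.11). The same counts for the SWI/SNF subunits were 6 and 11 of 29, with a median of -0.09. In E1 the ISWI genes gave 2 higher and 1 lower (median -0.06), the CHD and NuRD genes 5 and 8 (-0.12) and the third list 6 and 4 (0.01), where 27.1% and 19.7% of all genes passed. In F2 they gave 2 and 3 (-0.08), 3 and 8 (-0.15) and 4 and 7 (0.07), where 29.0% and 23.2% passed. CHD7, the remodeller mutated in CHARGE syndrome, was the only gene of these 3 lists past both the adjusted p and fold limit in WT. Its log2 rises were 6.74 ± 0.28 for WT, 6.49 for E1 and 7.19 for F2 (limma adjusted p = 1.99e-13, 3.58e-13 and 7.07e-14). Levels of CHD7 in DMSO are not given here, so whether it passed the filter through its treated libraries alone is not shown. These p values describe the rise and are not taken as independent support for it.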

How the data were processed

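RNA was poly(A)-selected and prepared with a stranded kit from 18 cultures, per the labels' protocols. The authors deposited 1 table whose values are a signal, read counts of genes, each library divided by its size factor. Trim Galore 0.4.4, STAR 2.6.0a, HTSeq, DESeq2 and hg19 are named in the submitters' processing notes, with no role or order. The annotation and the strand setting of the counting are not given in the sources used here, so antisense and overlapping genes cannot be told apart. The deposited values were whole reads after multiplication by the factor (0.8120 to 1.1449) for 100% of values in each library, within a tolerance of 1e-06, and depth was 25709489 to 39314860 reads.

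Groups and replicate numbers came from the labels. Genes with a mean of at least 10 (16154) were tested on the log2(value + 1) scale with limma 3.58.1 in R 4.3.3, in 1 fit of 6 groups without a replicate block and with trended variance. Adjusted p values are Benjamini-Hochberg over all genes within each of 11 contrasts, of which 2 (E1 against F2) were added after the values were seen. A call needed a log2 change of 1 or more in size and an adjusted p below 0.05. The limma p values rest on the spread between cultures within groups, with 1 variance per gene shared by the 6 groups. They do not follow the wider spread of the E1 cultures in DMSO (median SD 0.178 against 0.078 to 0.121). For contrasts that use that group they can be too small. Paralog log2 ratios were tested with two-sided exact permutation tests (scipy 1.17.1) over 7 pairs in 3 lines, where the smallest p is 0.1, so that none of the 21 could pass 0.05 with or without adjustment. Alternatives were other pseudocounts, filters, fold limits, scalings and samples in the fit, the replicate block, each library left out, and edgeR 4.0.16 and DESeq2 1.42.0 on the recovered reads. The limma fit was also run on simulated data. The outcome is not reported here and is not used as support for any result.

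The subunits and the other gene lists were chosen with earlier results of these data known. All subunits are described. From the lists of other remodellers, at most the 2 largest rises and 2 largest falls past the threshold in WT are named. Levels per kilobase used the union of exons of basic protein-coding transcripts in GENCODE (GRCh38), which counts every alternative exon. Counting intervals are 95% exact binomial and cover counting error only. Among the marker genes of other cells, PECAM1 was not matched by symbol and 1 further gene is not reported here.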

Additional observations from a re-analysis of the deposited data

Results flagged for a closer look

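The response to tazemetostat differed between a clone and the WT line for 13 subunit and clone combinations, by the limma test of the difference itself (adjusted p under 0.05), on the log2 scale. These are 9 of 29 subunits in E1 (7 higher and 2 lower, where 17.2% and 18.2% of all genes passed) and 4 of 29 in F2 (3 and 1, where 13.7% and 13.2% passed), shares that do not exceed those over all genes when both directions are counted. In E1 against WT the difference was 0.85 for BCL11A, 0.78 for ACTL6A, 0.56 for ARID2, 0.35 for BRD7, 0.35 for PHF10, 0.32 for SMARCD1 and 0.26 for BCL7A, and -0.34 for SMARCD3 and -0.30 for SMARCD2. In F2 against WT it was 0.64 for ACTL6A, 0.47 for BCL11A, 0.45 for ARID2 and -0.29 for SMARCD2. ACTL6A, ARID2 and BCL11A passed in both clones, and for BCL11A the WT cultures went down while the E1 cultures went up.

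Of these 13, 8 were kept when each library was left out in turn. In E1, BRD7 was lost without WT DMSO replicate 2 or E1 tazemetostat replicate 2 or 3 (adjusted p = 0.0508 to 0.0594) and in a fit of only the groups compared (0.0511). PHF10 was lost without WT tazemetostat replicate 2 or 3 or E1 tazemetostat replicate 2 or 3 (0.0501 to 0.055), and in a fit of only the groups compared (0.0508). SMARCD2 in E1 was lost without WT DMSO replicate 3, WT tazemetostat replicate 2 or E1 tazemetostat replicate 1 (0.0558 to 0.0669). BCL7A in E1 was lost without any of 9 of the 12 libraries, all but WT tazemetostat replicate 2, E1 DMSO replicate 1 and E1 tazemetostat replicate 3 (0.0523 to 0.105), and with a mean filter of 1 (0.0577) or only the groups compared in the fit (0.0798). SMARCD2 in F2 was lost without any of 8 of the 12, all but WT DMSO replicates 1 and 2, WT tazemetostat replicate 3 and F2 DMSO replicate 3 (0.0536 to 0.094), and under scaling to the same total it moved to -0.167 (0.122).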

How the results depend on the processing

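SMARCA2, DPF3 and BCL11B were called with tazemetostat in each line under every alternative pseudocount, scaling, fit, tool (edgeR and DESeq2 each called 3 in each line) and left-out library. A mean filter of 50 removed BCL11B from the test and left 2 calls. All 3 genes entered the test through their treated libraries. Their calls under these settings therefore describe the rise and are no independent support for it. Other subunit calls were smaller, and some were lost in other fits. Over the subunits and contrasts, 2101 left-out-library values stayed on the same side of the threshold, 111 lost the call and 50 gained one. Under the other alternatives the numbers were 3057, 38 and 83, with 1 reversal. That was DPF2 in WT, where 0.01 became -0.14 under scaling to the same total. A change of sign was counted as a reversal only where a fit passed, so the 2101 and 3057 can include changes of sign. All 168 alternative values of the paralog ratios lay within 1 SD of the main value, with the SD taken within groups. Their direction was not compared. The depth limits statements on SMARCB1 and ACTL6B, which could not be tested.

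Without a fold limit 17 (WT), 11 (E1) and 12 (F2) subunits were called with tazemetostat. Against WT they were 4 in E1 and 4 in F2 in DMSO, and 14 and 13 with tazemetostat. They were 9 and 4 for the response differences of E1 and F2, and 9 and 8 for E1 against F2 in DMSO and with tazemetostat. At a log2 limit of 0.5 the calls with tazemetostat were 5 in WT, 4 in E1 (SMARCD3 added) and 3 in F2. They were 1 in E1 against WT in DMSO, 3 and 5 in E1 and F2 against WT with tazemetostat, 3 and 1 for the response differences of E1 and F2, and 1 and 3 for E1 against F2 in DMSO and with tazemetostat. Shares of all genes at the limit of 0.5 were not computed, so these counts cannot be set against a background. edgeR and DESeq2 each called 1, SMARCA2, in F2 against WT with tazemetostat. A pseudocount of 5 called 1 for the response difference of F2, and a mean filter of 1 or no filter called 1 in E1 against F2 in DMSO.

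On adjusted p alone, fitting only the groups compared gave 3 lower in E1 and 8 lower in F2 with tazemetostat, 1 higher and 1 lower in E1 against WT in DMSO, 4 lower in F2 against WT with tazemetostat, 4 higher for the response of E1, 5 higher and 3 lower for that of F2, and 0 higher and 1 lower in E1 against F2 in DMSO. These fits held fewer libraries. Scaling to the same total gave 4 lower in E1 against WT in DMSO, 1 lower in F2 against WT with tazemetostat, 8 higher and 0 lower for the response of F2, and 0 higher in E1 against F2 in DMSO. No filter gave 1 higher in E1 against WT in DMSO and 0 lower for the response of F2. A pseudocount of 5 and mean filters of 1 and 50 each gave 2 higher in E1 against F2 in DMSO. The cause was not tested.

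Leaving out 1 library kept 3 to 3 calls with tazemetostat in each line. The calls ranged from 0 to 1 in E1 and in F2 against WT in DMSO, in the response of F2 and in E1 against F2 in DMSO, and from 0 to 0 elsewhere. The calls that appeared were without E1 DMSO replicate 3 (E1 against WT), WT DMSO replicate 2 or F2 DMSO replicate 2 (F2 against WT) and F2 DMSO replicate 2 (the other 2). On adjusted p alone the higher counts ranged from 5 to 5 in WT, 4 to 7 in E1 and 5 to 6 in F2 with tazemetostat, and the lower counts from 9 to 11, 4 to 7 and 4 to 5. Against WT in DMSO they ranged from 1 to 5 higher and 2 to 6 lower in E1, and 2 to 5 and 0 to 1 in F2. Against WT with tazemetostat they ranged from 7 to 9 and 5 to 6 in E1, and 10 to 11 and 2 to 3 in F2. For the response differences they ranged from 4 to 8 and 1 to 5 in E1, and 3 to 4 and 0 to 1 in F2. For E1 against F2 they ranged from 0 to 3 and 5 to 9 in DMSO, and 1 to 2 and 4 to 6 with tazemetostat.

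With a replicate block, the calls with tazemetostat remained 3 in each line. The block ended the calls of BRD7 with tazemetostat in WT (adjusted p = 0.0609) and of GLTSCR1 in E1 against F2 in DMSO (0.0596). The numbers share only a label in the sources: the correlation of same-numbered deviations exceeded 0.1 for every number only in F2 against WT in DMSO (0.108 to 0.375), and 8 of 18 libraries correlated best with their own number.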
